A study of Mus musculus with 66 samples.

Results

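Histone chaperones escort newly made or exchanged histones and hand them to DNA. Canonical H3.1 and H3.2 are placed on newly copied DNA by chromatin assembly factor 1 (CAF-1), whereas the replacement variant H3.3 is deposited throughout the cell cycle by the HIRA complex, mainly in transcribed genes, and by DAXX with ATRX, mainly at repeats. ASF1 and NASP act upstream of both routes, since they hold H3-H4 dimers and pass them on. Skeletal myoblasts leave the cell cycle when they differentiate, and H3.3 deposition by HIRA is known to take part in the activation of muscle genes. The H3 chaperone genes described here were 10 of the 22489 genes in the mRNA-Seq table: *Hira*, *Ubn1*, *Cabin1*, *Daxx* and *Atrx* for H3.3, *Chaf1a* and *Chaf1b* for H3.1 and H3.2, and *Asf1a*, *Asf1b* and *Nasp*, which serve both. They were chosen by symbol, from their known function, at a time when earlier results of these data were known. All 10 were found once and all 10 passed the filter of a mean of 1 FPKM (fragments mapped to a gene, divided by its length and by the mapped fragments of the library) over the 20 libraries, as 10954 genes did.

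The cells were C2C12, a mouse myoblast line. Of the 66 samples in the series, 20 were mRNA-Seq libraries, made from wild-type cells without a GFP-H3 (WT) and from 9 lines that carry an H3 with GFP at its N-terminus, which doxycycline switches on through the Tet-On system. The lines were stable clones selected with doxycycline and G418 and sorted for GFP, and endogenous H3 genes were still present in each of them. The GFP-H3 was H3.1, H3.2 or H3t in the 3 H3.1/H3.2-type lines and H3.3, H3mm7, H3mm11, H3mm12, H3mm13 or H3mm16 in the 6 H3.3-type lines, the H3mm proteins being mouse H3.3-like variants. Growth libraries came from subconfluent cells in 20% serum, and differentiated libraries from cells kept for 48 h in 2% horse serum after confluence. Whether doxycycline was present at harvest of the mRNA is not given in the sources used here. Each line had 1 library in each state, so lines were the replicates (10 growth and 10 differentiated libraries). The columns named H3mmT were taken as the H3t line.

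The WT libraries stood apart from the others: *Gapdh*, which ranged from 783 to 2094 FPKM in the 18 GFP-H3 libraries, was at 0.361 and 0.263 FPKM in WT, and FPKM summed to 409319 and 465247 in WT against 583613 to 894105 in the others. Results are therefore given with and without WT where that matters. Differentiation itself was clear in every line, since all 10 muscle markers, such as creatine kinase *Ckm* (log2 difference 7.51, SE 0.33), rose, whereas 10 of 12 markers of other cell types stayed under 1 FPKM in every library and *Cdh5* and *Runx2* did not. In bulk libraries, fewer cells of a type and less RNA per cell cannot be told apart. Read depth is unknown, so no counting interval can be given for FPKM.

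**Figure D1:**
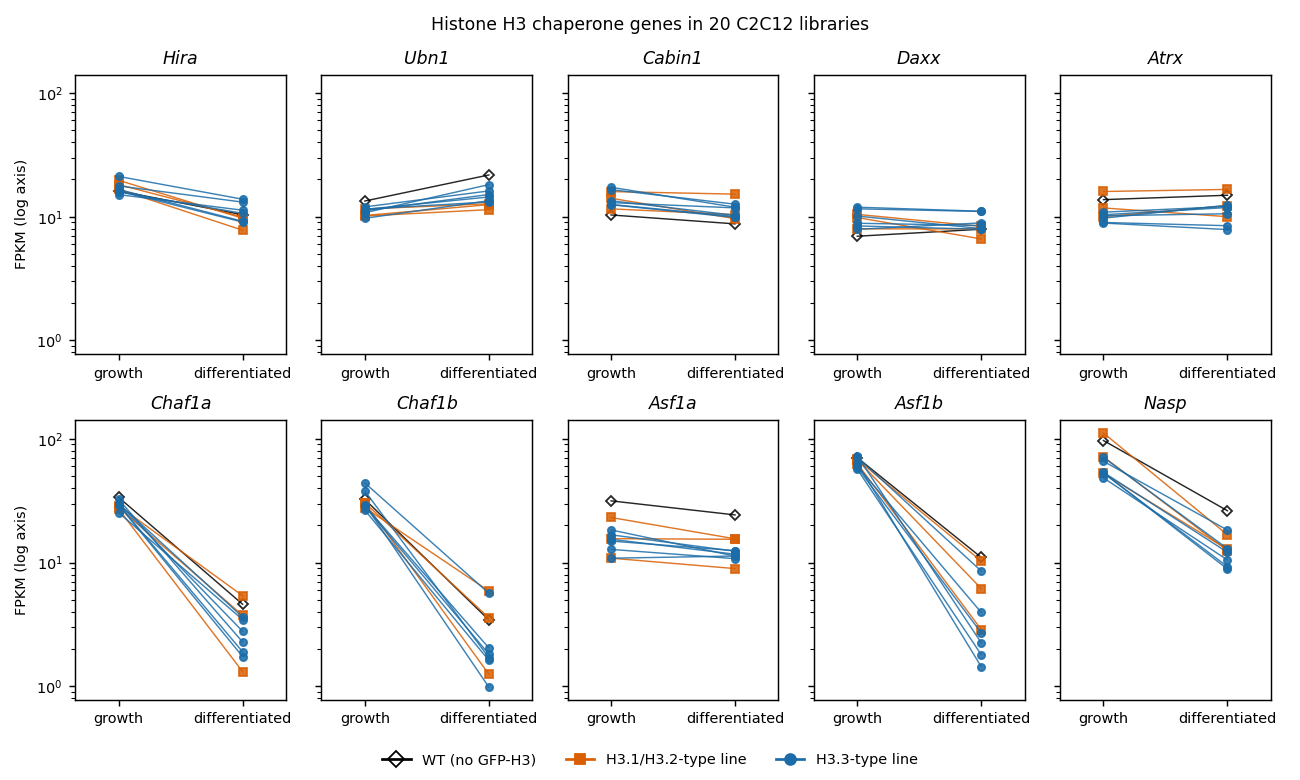
FPKM (log axis) of each chaperone gene in growth and differentiated libraries, 1 point per library and 1 line joining both libraries of a cell line, with WT as open diamonds, H3.1/H3.2-type lines as squares and H3.3-type lines as circles. *Chaf1a*, *Chaf1b*, *Asf1b* and *Nasp* fall steeply in all 10 lines, while the 5 H3.3 chaperone genes and *Asf1a* keep to a range of 6.62 to 31.5 FPKM.

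In growth, *Asf1b*, *Nasp* and the CAF-1 genes had the highest levels. By median FPKM, which is per length and so allows genes to be set side by side, the order was *Asf1b* (65.5), *Nasp* (59.7), *Chaf1b* (29.9), *Chaf1a* (29.3), *Hira* (16.6), *Asf1a* (15.5), *Cabin1* (13.2), *Ubn1* (11.3), *Atrx* (10.3) and *Daxx* (9.35). Of the 9 neighbouring pairs in this order, *Nasp* was above *Chaf1b* and *Chaf1a* above *Hira* in 10 of 10 lines, with differences of 1.04 ± 0.45 and 0.73 ± 0.20 in log2(FPKM + 1) (SD, n = 10; exact two-sided sign-flip permutation test, adjusted p = 0.0117 for both over 18 pairs, from the smallest p that 10 lines allow, 0.00195). The other 7 neighbours did not pass the test. In both states the pairs and their order were set by medians of the same libraries that were tested. Their p-values therefore describe how steady the order was over lines and are not an independent test of it. For *Cabin1* and *Ubn1*, which were 0.26 ± 0.25 apart (adjusted p = 0.0615, same exact permutation test), leaving out WT gave 0.33 and an adjusted p of 0.0176.

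After differentiation the order was another. *Ubn1* came first (median 13.96 FPKM), followed by *Nasp* (12.6), *Asf1a* (12.01), *Atrx* (11.98), *Cabin1* (10.3), *Hira* (10.2) and *Daxx* (8.19), and then *Asf1b* (3.41), *Chaf1a* (3.12) and *Chaf1b* (1.93). Among the 9 neighbours only *Hira* and *Daxx* passed the test (0.25 ± 0.11 in log2(FPKM + 1), *Hira* above in 10 of 10 lines, exact permutation adjusted p = 0.0117). *Daxx* was above *Asf1b* in 8 of 10 lines, with a difference of 0.88 ± 0.89 (exact permutation adjusted p = 0.0773), and without WT the difference was 1.02 (adjusted p = 0.0422). Without WT, 5 of the 18 pairs passed in place of 3.

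The summed level of the 10 genes was lower in differentiated cells, and most of the loss lay in the CAF-1 and shared genes. Their FPKM summed to a median of 269 (240 to 325) in growth and 90.1 (79.5 to 133) in differentiated libraries. The 5 H3.3 chaperone genes summed to 62.2 FPKM (57.1 to 70.5) in growth and 58.1 FPKM (49.9 to 63.7) after differentiation, ranges that overlap. Within lines this sum rose in WT (60.6 to 63.7 FPKM) and H3mm12 (57.1 to 58.6 FPKM). It fell in all other lines, for example from 63.8 to 49.9 FPKM in H3.2 and from 60.3 to 58.3 FPKM in H3mm11. *Chaf1a* and *Chaf1b* summed to 58.8 FPKM (51.8 to 73.9) and then to 4.95 FPKM (2.56 to 11.3), and *Asf1a*, *Asf1b* and *Nasp* to 141 FPKM (125 to 202) and then to 29.1 FPKM (23.2 to 61.5). In these sums the H3.3 chaperones made up 18.6% to 26.04% in growth and 47.8% to 69.1% in differentiated libraries, and CAF-1 17.99% to 25.2% and 3.08% to 11.1%. WT was at the low end for H3.3 chaperones in both states (18.6% and 47.8%), where the GFP-H3 lines started at 19.8% and 53.6%.

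**Figure D2:**
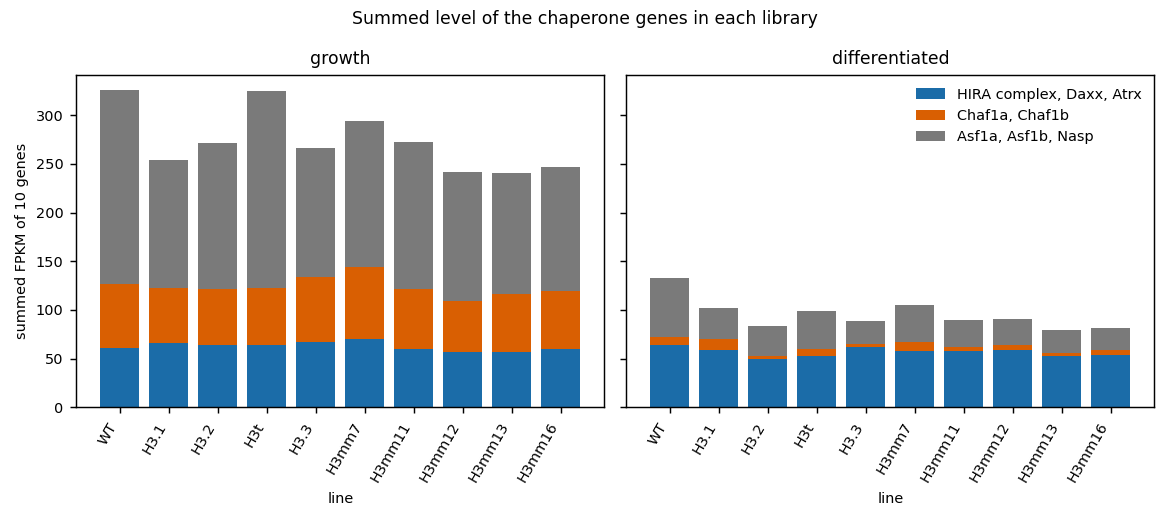
Summed FPKM of the 10 genes in each library (bars from 0), stacked by role, in growth and differentiated libraries. The stack of *Hira*, *Ubn1*, *Cabin1*, *Daxx* and *Atrx* lies between 49.9 and 70.5 FPKM in all 20 libraries, whereas that of *Chaf1a* and *Chaf1b* drops from 51.8 FPKM or more to 11.3 FPKM or less.

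The first comparison asked which chaperone genes change when myoblasts differentiate. Of the 10 genes, 6 fell (*Chaf1a*, *Chaf1b*, *Asf1b*, *Nasp*, *Hira* and *Cabin1*), 1 rose (*Ubn1*) and 3 did not pass the test (limma on log2(FPKM + 1), Benjamini-Hochberg adjustment over 10954 genes, adjusted p under 0.05, 10 against 10 libraries). Differentiation moved much of the transcriptome, since 58.6% of all genes tested were called, 30.5% higher and 28.1% lower (3336 and 3083 genes, or 2322 and 3355 when every library was scaled to the same summed FPKM). When a log2 difference of 1 or more was also required, 4 of the 10 genes were called, all lower, against 8.41% of all genes. The median log2 difference was -0.49 over the 10 genes and 0.04 over all genes.

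**Figure D3:**
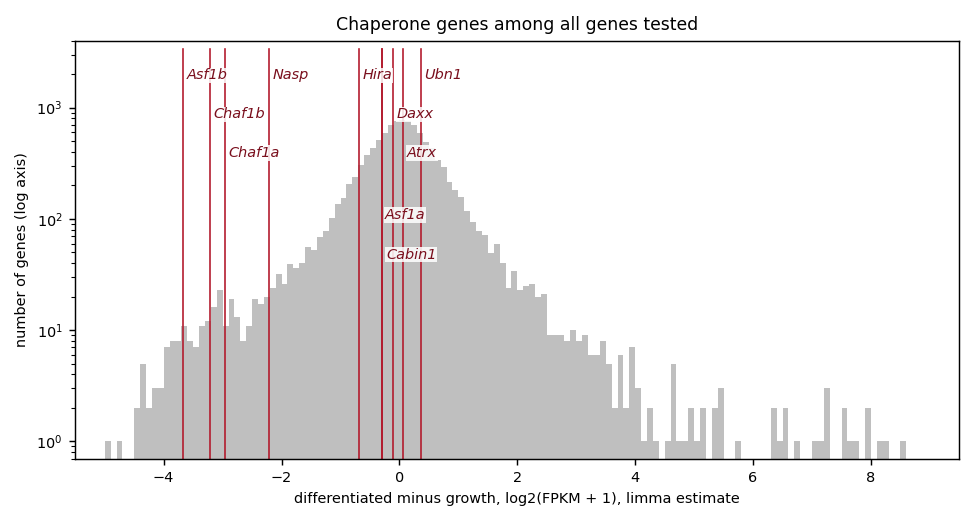
Number of genes (log axis) by log2 difference between differentiated and growth libraries for the 10954 genes tested, with a vertical line at each chaperone gene. *Asf1b*, *Chaf1b*, *Chaf1a* and *Nasp* lie in the lower tail, and the other 6 genes lie between -0.68 and 0.37.

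Both CAF-1 subunits that are specific to the complex fell. *Chaf1a* (mm9 chr17:56179827-56206973, plus strand), the large subunit that binds the replication clamp PCNA, ranged from 25.3 to 33.6 FPKM in growth (median 29.3) and from 1.31 to 5.39 FPKM after differentiation (median 3.12). Every differentiated library was below every growth library. The log2 difference was -2.96 (SE 0.15, 95% interval -3.27 to -2.65, adjusted p = 9.52e-13 by limma), and the FPKM ratio of growth to differentiated cells was 5.33 to 20.6 over the lines, with a median of 9.52. Only 1.21% of genes tested had a lower value. *Chaf1a* shares 144 of its 2844 exon bases (5.06%) with *Ubxn6* on the opposite strand, and strand was not stated for these libraries.

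*Chaf1b* (mm9 chr16:93884146-93906360, plus strand) encodes the WD-repeat subunit that completes the histone-binding part of the complex. Its growth libraries ranged from 26.5 to 44.0 FPKM (median 29.9), and its differentiated libraries from 0.985 to 5.89 FPKM (median 1.93), again without overlap. The fall was -3.22 (SE 0.20, 95% interval -3.63 to -2.80, limma adjusted p = 1.54e-11), a ratio of 4.72 to 29.8 (median 14.9). *Chaf1b* fell further than *Chaf1a* in 9 of 10 lines, by 0.26 ± 0.28 on the log2 scale (exact two-sided sign-flip permutation test over lines, adjusted p = 0.0122 over 5 pairs).

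The ASF1 paralogs behaved differently. *Asf1b* (mm9 chr8:86479406-86494096, plus strand), the paralog tied to proliferating cells, was at 56.8 to 72.8 FPKM in growth (median 65.5) and at 1.44 to 10.998 FPKM after differentiation (median 3.41). Its groups were the farthest apart of the 10 genes, with a log2 difference of -3.66 (SE 0.26, 95% interval -4.20 to -3.13, limma adjusted p = 9.22e-11) and a ratio of 6.40 to 44.1 (median 18.5). *Asf1a* (mm9 chr10:53316767-53329019, plus strand), the paralog linked to the HIRA route, was at 10.8 to 31.5 FPKM (median 15.5) and then 8.93 to 24.3 FPKM (median 12.01). Its groups overlapped widely, also without WT and H3t, and WT was the highest in both states (31.5 and 24.3 FPKM) and H3t the next highest (23.1 and 15.5 FPKM). The log2 difference of *Asf1a* was -0.30 (SE 0.18, limma adjusted p = 0.145) and it was lower in 9 of 10 lines. With the cell line as a block, which takes out differences between lines, the same -0.30 passed the test (adjusted p = 0.00226), and without WT but with no block it was -0.30 (adjusted p = 0.0552).

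Within a library, the ratio of *Asf1b* to *Asf1a* was 2.23 to 6.72 in growth (median 3.81), above 1 in all 10 lines. After differentiation it was 0.117 to 1.15 (median 0.291), and only the H3.1 line stayed above 1. The change of *Asf1b* was below that of *Asf1a* by 3.36 ± 0.87 on the log2 scale, in 10 of 10 lines (exact permutation adjusted p = 0.00326).

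*Nasp* (mm9 chr4:116273657-116300556, minus strand), which keeps a soluble store of H3-H4, ranged from 48.3 to 111 FPKM in growth (median 59.7) and from 8.86 to 26.2 FPKM after differentiation (median 12.6). It fell without overlap of the groups, by 2.21 on the log2 scale (SE 0.18, limma adjusted p = 1.11e-09), a ratio of 3.60 to 6.64 (median 5.03). H3t (111 FPKM) and WT (96.9 FPKM) were the highest in growth, and WT was also the highest after differentiation, ahead of H3mm7 at 18.3 FPKM. Although *Nasp* fell in every line, only *Ubn1* had a higher median in differentiated cells.

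Of the H3.3 chaperones, *Hira* (mm9 chr16:18877130-18970402, plus strand), the scaffold of its complex, fell the most. It was at 15.1 to 21.2 FPKM in growth (median 16.6) and at 7.78 to 13.9 FPKM after differentiation (median 10.2), with every differentiated library below every growth library. The log2 difference was -0.68 (SE 0.09, limma adjusted p = 1.34e-06), and the ratio of growth to differentiated cells had a median of 1.67 (1.34 to 2.14). *Hira* shares 81 exon bases (1.53%) with *Gm15797* on the same strand. A fall in all 10 lines was seen for 6 of the 10 genes (*Chaf1a*, *Chaf1b*, *Asf1b*, *Nasp*, *Hira* and *Cabin1*) against 21.3% of all genes tested, and a rise in all 10 lines for *Ubn1*, against 22.7%. Groups that do not overlap were seen for 5 of the 10 genes, all lower after differentiation, against 8.74% of all genes tested.

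Of the other subunits of the HIRA complex, *Ubn1* rose and *Cabin1* fell by less than *Hira*. *Ubn1* (mm9 chr16:5050161-5086378, plus strand), whose protein gives the complex its preference for H3.3, was at 9.71 to 13.4 FPKM in growth (median 11.3) and at 11.4 to 21.8 FPKM after differentiation (median 13.96). It rose in 10 of 10 lines, but the groups overlapped, and WT had the highest value in both states. The log2 difference was 0.37 (SE 0.10, limma adjusted p = 0.00253), or 0.33 without WT (adjusted p = 0.00138). When every library was scaled to the same summed FPKM, *Ubn1* was at 0.24 (adjusted p = 0.224), while the median of all genes moved from 0.04 to -0.08.

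*Cabin1* (mm9 chr10:75108855-75227102, minus strand), the third subunit, which was first known as an inhibitor of calcineurin, was at 10.3 to 17.3 FPKM in growth (median 13.2) and at 8.76 to 15.2 FPKM after differentiation (median 10.3). It was lower in 10 of 10 lines with overlapping groups, by 0.06 in the H3.1 line to 0.50 in the H3.2 line, and the log2 difference was -0.29 (SE 0.10, limma adjusted p = 0.0167). Compared with *Hira* in the same line, the change of *Ubn1* was higher by 1.05 ± 0.23 and that of *Cabin1* by 0.39 ± 0.26 on the log2 scale, each in 10 of 10 lines (exact permutation adjusted p = 0.00326 for both). The FPKM ratio of *Ubn1* to *Hira* accordingly went from 0.519 to 0.828 in growth, below 1 in every line, to 0.951 to 2.10 after differentiation, above 1 in 9 lines.

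*Daxx* and *Atrx* did not pass the test. *Daxx* (mm9 chr17:34046359-34052534, plus strand), the H3.3-specific chaperone of the pair, was at 6.96 to 11.9 FPKM in growth (median 9.35) and at 6.62 to 11.1 FPKM after differentiation (median 8.19). *Atrx* (mm9 chrX:102992954-103124736, minus strand), its chromatin-remodelling partner, was at 8.89 to 15.996 FPKM (median 10.3) and then 7.87 to 16.6 FPKM (median 11.98). Both pairs of groups overlapped, and the log2 differences were -0.11 (95% interval -0.31 to 0.10, adjusted p = 0.368) and 0.07 (-0.19 to 0.33, adjusted p = 0.663) by limma. *Daxx* was lower in 8 of 10 lines and *Atrx* higher in 7 of 10, although *Atrx* was at -0.06 after scaling to equal sums. The change of *Atrx* exceeded that of *Daxx* by 0.18 ± 0.28 (exact permutation adjusted p = 0.0820), and without the H3.2 line by 0.22 (adjusted p = 0.0352).

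**Figure D4:**
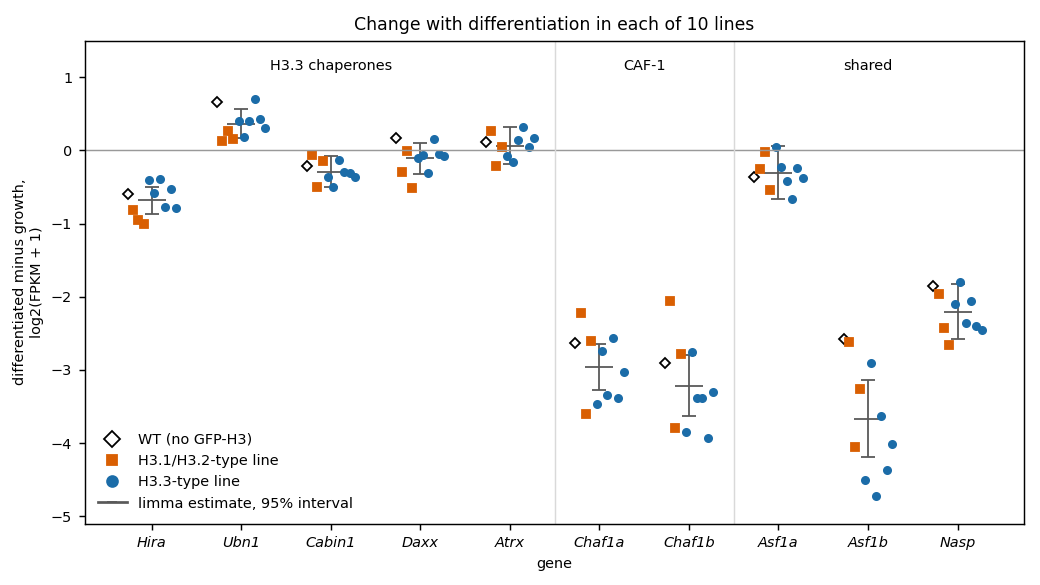
Difference between the differentiated and the growth library of each line in log2(FPKM + 1) for the 10 genes, 1 point per line, with the limma estimate and its 95% interval in grey. For *Asf1b*, *Chaf1a*, *Chaf1b* and *Nasp* all 10 points are below -1.7, and for the other 6 genes all points lie between about -1 and 0.8.

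The remaining levels of *Asf1b*, *Chaf1a* and *Chaf1b* differed between lines. In differentiated libraries, *Asf1b* was highest in WT (10.998 FPKM), H3.1 (10.3 FPKM), H3mm7 (8.54 FPKM) and H3t (6.16 FPKM), and the other 6 lines were at 1.44 to 3.95 FPKM. The same 4 lines led for *Chaf1a*, with 4.60, 5.39, 3.63 and 3.74 FPKM against at most 3.46 FPKM in the others. They also led for *Chaf1b*, with 3.43, 5.89, 5.65 and 3.58 FPKM against at most 2.04 FPKM. Since WT stood apart in *Gapdh* and in summed FPKM, its levels may not compare directly with those of the other lines. Among the GFP-H3 lines alone, H3.1, H3mm7 and H3t still led for each of these genes. For *Nasp*, WT, H3mm7 and H3t were the highest, but H3.1 (12.8 FPKM) was not set apart. Genes of DNA synthesis followed the same lines: over 20 S-phase genes, the mean log2(FPKM + 1) in differentiated libraries was 3.41 in H3.1, 3.03 in WT, 2.996 in H3mm7 and 2.99 in H3t, and 1.94 to 2.52 in the other 6 lines. In growth this mean was 5.39 to 5.66, and all 20 genes fell with differentiation, with a median log2 difference of -2.84. The part of these genes, or of cells that still cycled, in the chaperone levels was not tested.

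The whole profiles over the 20 libraries were compared as the root mean square difference between mean-centred log2(FPKM + 1) values, with no test. Closest to *Chaf1a* were *Lmnb1*, the gene of lamin B1 (0.16), and the DNA ligase gene *Lig1* (0.17). For *Chaf1b* these were *Mcm10* (0.21) and *Mcm6* (0.22), both of the replication machinery, and for *Nasp* the checkpoint kinase gene *Chek1* (0.24) and the DNA polymerase gene *Pola1* (0.24). *Asf1b* was closest to *Dlgap5* (0.16) and *Fam83d* (0.20), which encode spindle proteins. The 6 other genes varied less, with profile SDs of 0.22 to 0.43 against 1.20 to 1.97, and their closest genes, such as *Psma7* for *Hira*, *Shprh* for *Atrx* and *Pafah1b2* for *Asf1a*, were at 0.10 to 0.14.

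Other chaperones and partners of H3-H4 mostly fell too. Of 20 such genes, 13 fell, 3 rose and 4 did not pass the test (limma, adjusted over all genes), with a median log2 difference of -0.90 against 0.04 for all genes. Over all genes tested, 28.1% were called lower and 30.5% higher. The falls with the smallest adjusted p were those of *Hjurp*, the CENP-A chaperone (-1.63, SE 0.09, adjusted p = 2.12e-12), *Dnajc9*, a heat shock co-chaperone of H3-H4 (-1.79, SE 0.11, adjusted p = 9.95e-12), and *Mcm2*, the helicase subunit that also binds H3-H4 (-2.95, SE 0.18, adjusted p = 1.06e-11). All 3 were lower in 10 of 10 lines. The risers were *Spty2d1*, a chaperone of transcribed chromatin (0.99, SE 0.12), *Ubn2*, the paralog of *Ubn1* (0.49, SE 0.09), and *Tlk2*, a kinase that acts on ASF1 (0.44, SE 0.09), each higher in 10 of 10 lines. *Rbbp4*, which encodes the small CAF-1 subunit but serves many complexes, was at 0.15 (SE 0.13, adjusted p = 0.333), and *Hat1*, which acetylates new H4, fell by 2.02 (SE 0.18, adjusted p = 2.76e-09). Both were named after their values were seen.

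Chaperones and exchangers of H2A-H2B were counted in the same way. Of 12 listed, 11 were in the table, and 4 of those fell and 7 did not pass the test, with a median log2 difference of -0.49. Among all genes tested, 28.1% were called lower and 58.6% were called in either direction, so these counts do not stand out. The leading ones were *Set* (-0.93, SE 0.19, adjusted p = 0.000239), *Anp32e*, which removes H2A.Z (-1.04, SE 0.23, adjusted p = 0.000489), and nucleolin, *Ncl* (-0.76, SE 0.22, adjusted p = 0.00617). These counts depend on what was listed. *Ep400*, *Ino80*, *Vps72* and *Znhit1*, which belong to exchange complexes, were among the genes that did not pass. *Ssrp1* (-1.21, limma adjusted p = 7.51e-10) and *Supt16* (-0.96, adjusted p = 1.02e-06), whose shared complex also binds H2A-H2B, were counted with H3-H4 and fell. Whether the lists differ was not tested.

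Because 4 genes moved together, their promoters were searched for words tied to cell cycle genes. All 10 genes had RefSeq promoters (250 bases before to 50 after the start, from a table of 32851 on GRCm38.p6), 12 in all, and each of them matched the mm9 sequence at a single place. The words given here, searched on both strands, were TTTCCCGC, TTTGGCGC, TTTCGCGC and TTTGCCGC for E2F and CCAAT for the CCAAT box. None of the E2F words was in a promoter of the 10 genes, and 2.26% of all promoters held at least 1 of them. At so low a share, finding none in 12 promoters says little, and only these exact words were searched. CCAAT was in 8 genes, all but *Hira* and *Chaf1b* (37.4% of all promoters). A gene was counted when any of its promoters held the word, whereas the share is per promoter, and not every *Daxx* promoter held it. RefSeq starts can differ from the gene starts given above. The *Hira* window (mm9 chr16:18876593-18876892), for example, ends before the stated start of that gene, 18877130. The stretches below show the CCAAT nearest the start in *Asf1b* (on the other strand, as ATTGG), *Chaf1a* and *Asf1a*, so that genes that fell can be set beside a paralog that did not pass the test. Capitals mark the word, which begins at -39, -81 and -17 from the RefSeq start, and no word overlaps another there. The *Asf1b* stretch lies inside the gene position given above, whose start is upstream of the RefSeq start.
Asf1b, mm9 chr8:86479544-86479569, plus strand: cttagcggcgATTGGctggaaggcgg
Chaf1a, mm9 chr17:56179748-56179773, plus strand: gcaagctcctCCAATcggcgcgcggg
Asf1a, mm9 chr10:53316740-53316765, plus strand: tcgggggcagCCAATcgcgggcaacg
CCAAT was present both in genes that fell and in genes such as *Atrx* and *Daxx* that did not pass the test, and *Chaf1b*, with the lowest differentiated level, held none of these words. A word is a description of the letters, no binding was measured, and the part of any word in the changes was not tested.

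The other comparison asked whether the type of GFP-H3 a line carries, which chaperones are known to tell apart, goes with the level of the chaperone genes. In growth, none of the 10 genes was called between the 6 H3.3-type and the 3 H3.1/H3.2-type lines (limma, adjusted p from 0.603 to 0.985) and none had an unadjusted p under 0.05, where 0.246% of all genes were called and 9.39% had such a p. The log2 differences (H3.3-type minus H3.1/H3.2-type) were between -0.39 for *Nasp* and 0.11 for *Chaf1b*, and their 95% intervals reached from -0.86 to 0.79. In this fit both states shared 1 estimate of the spread for each gene, so the intervals in either state do not rest on that state alone.

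In differentiated cells, again none of the 10 genes was called, against 2.46% of all genes (110 higher and 159 lower in H3.3-type lines, or 80 and 1709 after scaling to equal sums). *Ubn1* was at 13.2 to 18.2 FPKM in H3.3-type lines (median 14.8) and at 11.4, 12.5 and 12.7 FPKM in H3t, H3.2 and H3.1. The types did not overlap, which 6.07% of all genes showed as well, and the log2 difference was 0.28 (95% interval 0.06 to 0.50, unadjusted p = 0.0171, adjusted p = 0.147 by limma). *Asf1b* was at 1.44 to 8.54 FPKM in H3.3-type lines (median 2.47) and at 2.87, 6.16 and 10.3 FPKM in H3.2, H3t and H3.1, and the types overlapped, since H3mm7 (8.54 FPKM) and H3mm12 (3.95 FPKM) were above H3.2. Its log2 difference was -0.78 (95% interval -1.49 to -0.06, unadjusted p = 0.0348, adjusted p = 0.209 by limma). The SE of 0.34 was the same in both states, because they shared 1 estimate of the spread. In differentiated libraries the SDs of *Asf1b* were 0.71 (H3.3-type) and 0.77 (H3.1/H3.2-type), against 0.14 and 0.06 in growth. That interval therefore draws on the tighter growth values as well. *Ubn1* and *Asf1b* were the 2 of 10 genes with an unadjusted p under 0.05, against 20.1% of all genes. Without the H3mm7 line the *Asf1b* difference was -1.03 and passed the test (limma adjusted p = 0.0464). It also passed when libraries were scaled to equal sums (-1.09, adjusted p = 0.0366). That scaling moved the median of all genes from 0.01 to -0.26. Over fits that each lacked 1 line, the *Asf1b* difference ranged from -1.18 to -0.41 and that of *Ubn1* from 0.22 to 0.31. In the fit without the H3t line, none of the 10 genes, *Ubn1* and *Asf1b* included, had an unadjusted p under 0.05. S-phase genes moved the same way in this contrast, with a median of -0.60 and 2 of 20 called lower, and their part in the *Asf1b* difference was not tested.

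The remaining 8 genes differed by -0.44 (*Chaf1b*) to 0.26 (*Hira*) between the types in differentiated cells, and *Hira* and *Daxx* changed sign (-0.01 and -0.02) when libraries were scaled to equal sums. The interval of *Hira* reached from -0.04 to 0.55 and that of *Daxx* from -0.07 to 0.55. *Chaf1b* had the widest of the 8, from -1.12 to 0.24. Whether the types changed differently with differentiation was tested as an interaction: 0 of 10954 genes were called by limma, 1002 (9.15%) had an unadjusted p under 0.05, and none of the 10 chaperone genes was among them. That fit ignored the pairing of states within a line. With the cell line as a block, 1774 genes had such a p, 1 of the 10 among them. Without the H3.2 line and with no block, 2 of the 10 did. In neither fit was any of the 10 called. The interaction estimates lay between -0.72 (*Asf1b*) and 0.34 (*Hira*), with 95% intervals from -1.73 to 0.81.

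**Figure D5:**
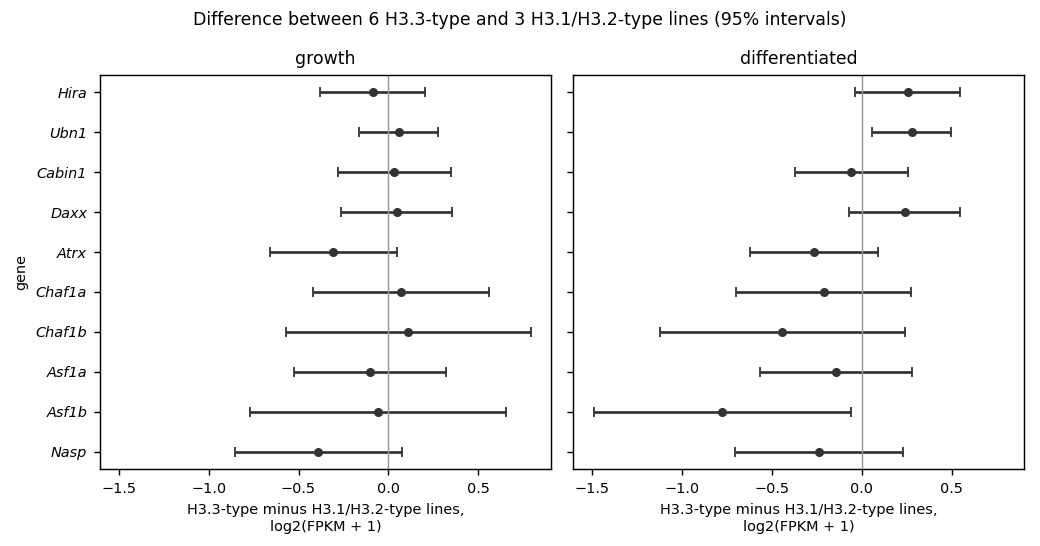
Log2 difference between the 6 H3.3-type and the 3 H3.1/H3.2-type lines for each gene, with 95% intervals, in growth (left) and differentiated cells (right). In growth every interval crosses 0, and in differentiated cells those of *Ubn1* (0.06 to 0.50) and *Asf1b* (-1.49 to -0.06) do not, although neither gene passed after adjustment over all genes. Both states share 1 estimate of the spread for each gene.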

How the data were processed

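Poly(A) mRNA-Seq of 20 C2C12 libraries was used. Per the paper's methods, TopHat 2.0.8 placed the reads on mm9 and cuffdiff of Cufflinks 2.0.1 gave the FPKM that the authors deposited. How WT reads were mapped is not given in the sources used here. Read depth is unknown, so the precision rests on the spread between lines. FPKM were tested as log2(FPKM + 1), on genes averaging 1 FPKM or more, with limma 3.58.1 (trend and robust) in R 4.3.3 and Benjamini-Hochberg adjustment over all of them. A fold change on this scale understates that of low genes. Types were compared without WT, in a fit where both states shared 1 estimate of the spread for each gene. Pairs of genes were compared by exact sign-flip permutation over lines (1024 arrangements). Lines pair the states, being the same cell line: libraries of a line deviated together in all 10 lines (r 0.273 to 0.877). The design left the block out, and blocked values are given where a call changed. Lines, not separate cultures of a line, were the replicates.

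Members and lists were chosen with earlier results of these data known. Named genes are the 10 members, the 3 genes of each list with the smallest adjusted p per direction, the 2 nearest profiles, *Gapdh*, and others stated as chosen after their values were seen. Muscle, myoblast, S-phase and other cell type lists were also counted: of 6 myoblast markers 3 rose, 1 fell and 2 did not pass. Alternatives covered the pseudocount, filters, scalings, limma settings, the block and leaving out each line. The scripts were tested on data with known answers. Gene positions are from GENCODE on mm9 and promoters from RefSeq, where the result of 1 other word is not reported here. ChIP-seq, its input and 3′-seq were not analysed here. Python 3.11.15, numpy 2.4.6, pandas 2.3.3 and matplotlib 3.10.9 were also used.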

Additional observations from a re-analysis of the deposited data

Results flagged for a closer look

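A single value was far from the others of its group. In differentiated H3.3-type lines, *Chaf1b* was at 5.65 FPKM in the H3mm7 line and at 0.985 to 2.04 FPKM in the other 5, a gap of 0.647 of the group's range on the log2(FPKM + 1) scale, above Dixon's critical value of 0.625 for 6 samples. Of 40 groups tested (10 genes in both states, over all lines and over H3.3-type lines), this was the only flag, where chance flags about 1 in 20 groups. In the same library *Asf1b* was at 8.54 FPKM, *Nasp* at 18.3 FPKM and the mean log2(FPKM + 1) of 20 S-phase genes at 2.996. Their part in the *Chaf1b* value was not tested.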

How the results depend on the processing

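The calls of *Chaf1a*, *Chaf1b*, *Asf1b*, *Nasp*, *Hira* and *Cabin1* after differentiation held under every alternative run. Scaling every library to the same summed FPKM left 0 genes of the 10 called higher and gave -0.061 for *Atrx*, while blocked fits by cell line called *Asf1a* (-0.30) and changed no other call of the 10. The same scaling called 1 gene lower between types in differentiated cells, as did leaving out H3mm7 (0 to 1 over the lines), and it gave -0.012 for *Hira* and -0.024 for *Daxx* there. In the interaction it gave -0.029 for *Ubn1*, -0.045 for *Daxx*, -0.21 for *Atrx* and -0.104 for *Nasp*. Leaving out WT gave 5 passing pairs of neighbours (1 of the 10 lines left out in turn gave 3 to 5). The causes were not tested.

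Leaving out each line in turn turned the sign of small differences that had passed no test. Between types in growth the ranges were -0.083 to 0.133 for *Cabin1*, -0.059 to 0.116 for *Daxx* and -0.356 to 0.157 for *Asf1a*, and in differentiated cells -0.175 to 0.128 for *Cabin1* and -0.629 to 0.104 for *Chaf1a*. In the interaction they were -0.087 to 0.156 for *Atrx*, -0.676 to 0.015 for *Chaf1a*, -0.175 to 0.0895 for *Asf1a* and -0.0024 to 0.35 for *Nasp*. Neighbours in level ranged from -0.069 to 0.075 for *Asf1b* and *Nasp* and from -0.0073 to 0.10 for *Ubn1* and *Atrx* in growth, and from -0.033 to 0.0905 for *Nasp* and *Asf1a* and from -0.0099 to 0.13 for *Atrx* and *Cabin1* in differentiated cells. Of the values of single genes and pairs under alternatives, 1036 kept their sign and their side of the threshold, 32 turned, 6 newly passed and 1 no longer passed.

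Over all genes, types in growth gave 27 calls, against 50 and 79 with pseudocounts of 0.1 and 0.01 FPKM and 16 with a filter at 5 FPKM, and 2 (without H3.1) to 28 when a line was left out. In differentiated cells 269 calls became 140 without a filter, 156 with that at 5 FPKM, 1789 after scaling to equal sums, and 8 (without H3.1) to 774 (without H3.2). The interaction gave 0 calls, but 5 without a filter, 1 with that at 5 FPKM, 1 after scaling to equal sums, 4 after quantile normalization, 3 with the block and up to 2 without a line. Depth is unknown for FPKM, and 10 lines with 1 library each limit what can be detected.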
